A study of Mus musculus with 24 samples.

Results

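The male p53 Y217C and male p53 R172H lines are mouse cortical astrocyte cultures that carry different missense mutants of the tumor suppressor p53, and they are compared here across all 14427 genes of the count table. The members were chosen by their labels and comprised 6 of the 24 RNA-seq libraries of the series, 3 for each line. The whole series holds 8 lines, a male and a female culture each with p53 Y217C, Y202C or R172H or with p53 knocked out (KO), and it asks how the effect of a p53 mutation depends on the mutation and on the sex of the cells. Both lines started from the same C57BL/6 male culture, which was made from cortices of at least 3 pups pooled at postnatal day 1, and whose cells held 1 floxed and 1 deleted Trp53 allele (Trp53 f/-). A retrovirus added the mutant Trp53 together with eGFP, GFP-positive cells were sorted, and a lentivirus carrying Cre and puromycin resistance then removed the floxed allele. The male KO cells, used below as values beside the contrast, lost the floxed allele without receiving a mutant. Cells were at passages 10 to 15, and polyadenylated RNA was sequenced. Each genotype is 1 transduced and selected population, so the mutation and the history of its line cannot be told apart, and the p-values measure the spread between libraries of 1 line.

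The transcription factor p53 stops the cell cycle or triggers cell death after DNA damage and other stress, and it does so by binding DNA and switching on genes such as Cdkn1a and Bbc3. Missense mutants in its DNA-binding domain usually lose much of this activity, and the mutant protein often accumulates because Mdm2, the ligase that marks p53 for destruction, is itself a p53 target. Astrocytes are the glial cells that take up glutamate, buffer ions and water and support synapses in the brain. Cultured astrocytes that lack p53 are widely used to study glioma.

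Both mutated residues lie in the DNA-binding domain, and the reference sequence around each codon is shown because the lines are named for these mutations. The sequences are from GENCODE M21 on the GRCm38 build, plus strand of chromosome 11, in the transcript that encodes 390 residues over 11 exons. The codon of R172H is in exon 5 at chr11:69588511-69588513 and that of Y217C in exon 6 at chr11:69588724-69588726. Capitals mark the codon in the coding sequence of codons 165 to 179 and of codons 210 to 224.
Trp53 around the R172H codon, changed from arginine to histidine: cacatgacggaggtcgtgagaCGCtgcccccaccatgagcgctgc
Trp53 around the Y217C codon, changed from tyrosine to cysteine: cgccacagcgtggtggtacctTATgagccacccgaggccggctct

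Levels are given as CPM, the read counts of a gene scaled to a common depth with TMM normalization. Trp53 measured 1188, 1247 and 1211 CPM in the 3 Y217C libraries and 2315, 2196 and 2349 CPM in the 3 R172H libraries. It averaged 50.9 CPM in the male KO line, so both lines carried the added transcript, and the groups did not overlap. The log2 difference, Y217C minus R172H throughout, was -0.91 (SE 0.053, n = 3 per line, adjusted p = 2.0e-13, edgeR quasi-likelihood test with Benjamini-Hochberg adjustment), and whether the amount of mutant transcript moved other genes was not tested. In bulk RNA, fewer cells with a transcript and less of it per cell cannot be told apart. Of 8 genes in the list of p53 and its regulators, 2 were higher in Y217C and 3 lower, and none differed by over 2-fold. Rchy1, a ligase that targets p53, was 0.79 higher on the log2 scale and Ppm1d, a phosphatase that dampens p53 signaling, was 0.35 higher. Mdm4, an inhibitor of p53, fell by 0.26, a call lost without Y217C replicate 2 (-0.19), and Usp7, which removes ubiquitin from p53 and Mdm2, fell by 0.23. Mdm2 did not pass the test, with a log2 difference of 0.10 (SE 0.06), although it passed with the limma test that the authors used (0.12) and among genes with CPM above 10 (0.15).

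The 6 libraries held 70022599 to 106463163 counts, and 3 counts, used below as the limit of detection, correspond to 0.0291 to 0.0402 CPM. The lowest Pearson correlation of log2 CPM between libraries of a line was 0.9944, against 0.8829 to 0.8903 between the lines. No pair of libraries of a line differed by as little as sampling noise, with 16.87 to 33.77 times the variance that counting error gives. The mitochondrial genome took 2.91 to 3.47% of counts in Y217C and 1.71 to 1.86% in R172H, and the part of this in the differences below was not tested. The strand used in counting is not given in the sources used here, so the values of genes whose exons overlap another gene are uncertain, which holds for 51 of the 187 genes named here, such as Aldh1l1, Cdkn1a, Hopx and Notch1.

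Most of the transcriptome differed between these lines. At an adjusted p of at most 0.05, 9943 of 14427 genes (68.9%) passed, 4865 of them higher in Y217C (33.7% of genes tested) and 5078 lower (35.2%). All counts of list members called higher or lower are to be read beside these shares. By the stricter rule that also asks for a difference of over 2-fold, 2848 genes passed (19.7%), 1519 higher (10.5%) and 1329 lower (9.21%). The median absolute log2 difference was 0.382 over all genes, and the 3 libraries of each line did not overlap for 36% of genes with Y217C higher and 37.1% with Y217C lower. The large differences were mostly rises: 240 genes were over 32-fold higher in Y217C and 28 over 32-fold lower. Of the 240 genes, 174 averaged below 1 CPM in the male KO line as well, 75 reached at least 20 CPM in Y217C, and 225 encode proteins. Overlapping with these sets, 79 genes had at most 3 counts in every R172H library and at least 1 CPM in Y217C, against 3 genes in reverse. The plot of difference by level shows both groups of extremes.

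**Figure D1:**
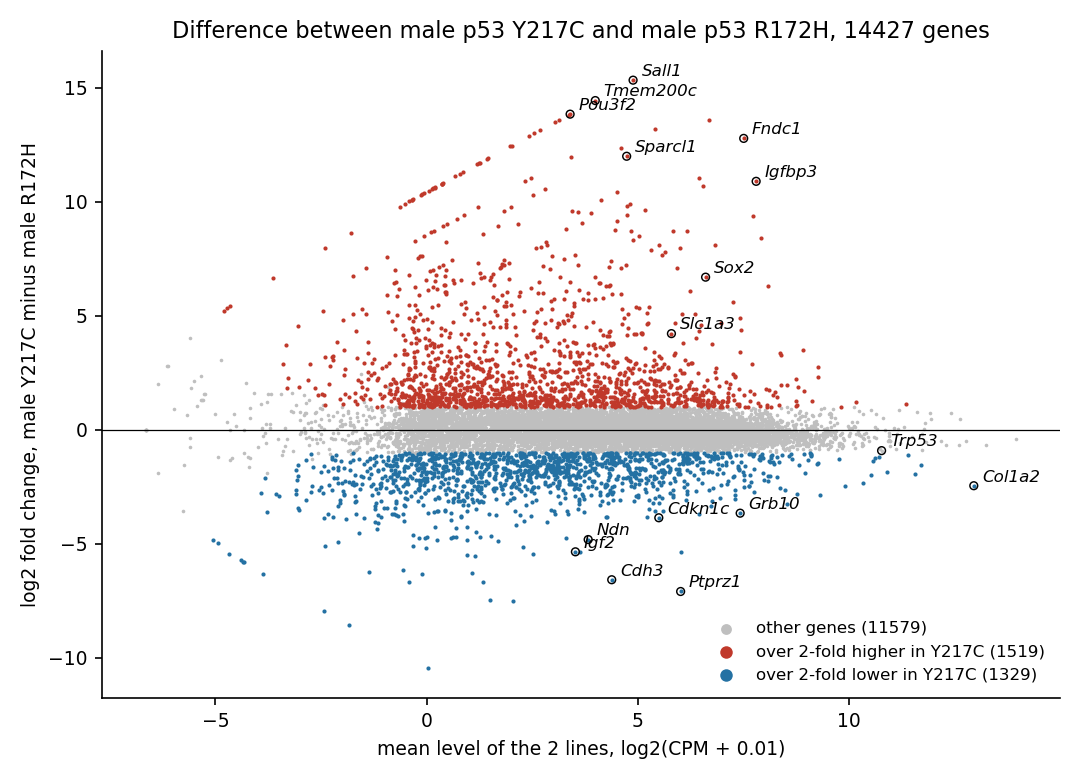
Log2 difference of male p53 Y217C minus male p53 R172H (vertical axis) against the mean level of both lines as log2(CPM + 0.01) (horizontal axis), 1 point per gene, with genes past the test and over 2-fold higher in red (1519) or lower in blue (1329). The diagonal streak at the upper left holds genes with 0 counts in R172H, whose fitted difference depends on the prior count and is no bound, and at these heights rises outnumber falls, with 240 genes over 32-fold higher against 28 lower.

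The lines are labelled as primary astrocytes, and part of the astrocyte markers, among them Aqp4, Aldh1l1, Gfap, Mlc1 and Slc1a2, were at or below 0.217 CPM in every R172H library. Of the 26 list members tested, 19 were higher in Y217C (73.1%, against 33.7% of all genes) and 3 lower, with a median log2 difference of 1.94 beside -0.01 for all genes. Aqp4, the water channel of astrocyte endfeet, measured 9.22, 6.998 and 7.97 CPM in Y217C and 0 in every R172H library, at least 229-fold higher by the limit of 3 counts per library. Aldh1l1, a folate enzyme used as a pan-astrocyte marker, measured 62.2, 48.9 and 58.7 CPM against 0.0872, 0.0512 and 0.0255 CPM (log2 difference 9.90, SE 0.23, n = 3, adjusted p = 3.62e-21, edgeR). Every Y217C library was above every R172H library for both genes. Gfap, the intermediate filament of astrocytes, measured 8.37, 4.98 and 7.45 CPM against 0.184, 0.0769 and 0.217 CPM, so it was low in both lines. The glutamate transporters Slc1a2 and Slc1a3 were higher by 5.46 and 4.22 on the log2 scale, and the membrane protein Mlc1 was higher by 9.82. The male KO line was also low, with means of 0.113 CPM for Aqp4, 0.257 CPM for Gfap and 0.629 CPM for Aldh1l1.

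Not every astrocyte gene followed. The glial fate factors Sox9 and Nfia and the gap junction gene Gja1 did not pass the test, with log2 differences of -0.15, -0.03 and -0.09 and levels of at least 39.1 CPM in all 6 libraries. Sox9 passed without Y217C replicate 1 (-0.21). Id3, an inhibitor of differentiation factors, fell by 0.66, the secreted Mfge8 fell by 0.45, and F3, tissue factor, fell by 0.32. Glul, the glutamine synthetase that turns glutamate into glutamine, was higher by 0.82. The summed level of the astrocyte list was 3858 to 4168 CPM in Y217C and 2042 to 2105 CPM in R172H.

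Markers of other cell types moved too. In the fibroblast and mural cell list, 14 of 22 members were lower in Y217C and 4 higher, with a median of -0.61 and a summed level of 24840 to 25430 CPM against 40000 to 43620 CPM in R172H. Col1a2, a chain of type I collagen, measured 2427, 2432 and 2512 CPM in Y217C and 12340, 14060 and 13932 CPM in R172H (log2 -2.45, SE 0.09, n = 3, adjusted p = 2.17e-17, edgeR), with no overlap. Cspg4 (NG2), found on pericytes and glial progenitors, fell by 2.51, Tbx18 by 2.11 and Thy1 by 2.04, whereas the pericyte receptor Pdgfrb was higher by 1.27 and the mesenchymal factor Twist2 by 1.28. For oligodendrocytes 8 of 16 listed genes were in the table, and Olig1, Olig2, Sox10 and Mog were not among them. Myrf, a transcription factor of myelin genes, measured 2.97, 3.12 and 3.23 CPM against 126, 132 and 120 CPM in R172H, and the fate factor Nkx2-2 was at least 313-fold higher in Y217C. Microglia had 4 of 16 listed genes in the table, without Ptprc, Itgam or Aif1, and their summed level was 40.6 to 44.5 CPM against 98.9 to 121 CPM. For neurons 6 of 16 listed genes were in the table, and Rbfox3, Snap25 and Dcx were not among them. Of the 6 tested neuron markers, 4 were lower and 1 higher, with a median of -1.47. Tubb3, a neuronal tubulin, fell by 2.65, and Map2, a dendritic microtubule protein, was the member that was higher, by 2.49. Endothelial cells had 6 of 12 listed genes in the table, without Pecam1, Cldn5 or Vwf. Of the 6 tested endothelial markers, 4 were lower (66.7%, beside 35.2% of all genes), among them Flt1 and Tek, by 2.35 and 1.87, and 2 were higher. What part these marker shifts have in the differences below was not tested.

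Among genes with at least 20 CPM in the higher line, the 12 largest rises included the transcription factors Sall1, Sall3, Pou3f2 and Pou3f3. Sall1, a zinc finger factor of neural progenitors and kidney development, measured 59.7, 58.1 and 60.1 CPM in Y217C and 0 in all R172H libraries, at least 1683-fold higher. Pou3f3 (Brn1), a POU factor of cortical progenitors, measured 213, 209 and 199 CPM against 0.0194, 0.0256 and 0 CPM, at least 5885-fold higher. Pou3f2 (Brn2), a close relative of Pou3f3, measured 22.1, 21.95 and 19.2 CPM against 0 in every R172H library, at least 598-fold higher. For these factors and for Sall3, which was at least 591-fold higher, the R172H libraries stood at the limit of detection. The male KO line lay between both mutants, with 8.07 CPM for Sall1, 23.01 CPM for Pou3f3 and 2.84 CPM for Pou3f2, and the male Y202C line held 35.7, 116 and 20.8 CPM. Pantr1, a long noncoding RNA on the opposite strand beside Pou3f3, was at least 610-fold higher.

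Of the other genes among these rises, Fndc1, a fibronectin type III domain protein, measured 360, 337 and 396 CPM in Y217C and 0.0194, 0.0897 and 0.0509 CPM in R172H (log2 12.79, SE 0.23). Igfbp3, a carrier of insulin-like growth factors, measured 457, 412 and 471 CPM against 0.126, 0.320 and 0.280 CPM. Libraries of the lines were far apart for both genes, and the male KO line held 4.10 and 24.8 CPM. Sparcl1 (hevin), a synapse-promoting protein of astrocytes, measured 56.4, 42.3 and 61.3 CPM against 0, 0.0384 and 0 CPM, at least 1514-fold higher. Shisal1, the protease inhibitor family member Pi15 and Tmem200c were at least 2405-fold, 1389-fold and 905-fold higher, where Pi15 and Tmem200c each overlap an antisense gene.

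The largest falls were smaller. Ptprz1, a receptor phosphatase of glial progenitors and glioma, measured 0.711, 1.16 and 0.951 CPM in Y217C and 126.7, 137.5 and 121.2 CPM in R172H (log2 -7.09, SE 0.14, n = 3, adjusted p = 1.86e-22, edgeR). Cdh3, placental cadherin, fell by 6.58, and Acan, the cartilage proteoglycan aggrecan, fell by 5.35. The transcriptional regulator Prdm6 and the leucine-rich repeat protein Lrrc15 each fell by 3.82. The plot of levels by library includes Ptprz1, Cdh3 and Peg3. In the male KO line, Ptprz1 and Cdh3 lay between both mutants and Peg3 near R172H.

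**Figure D2:**
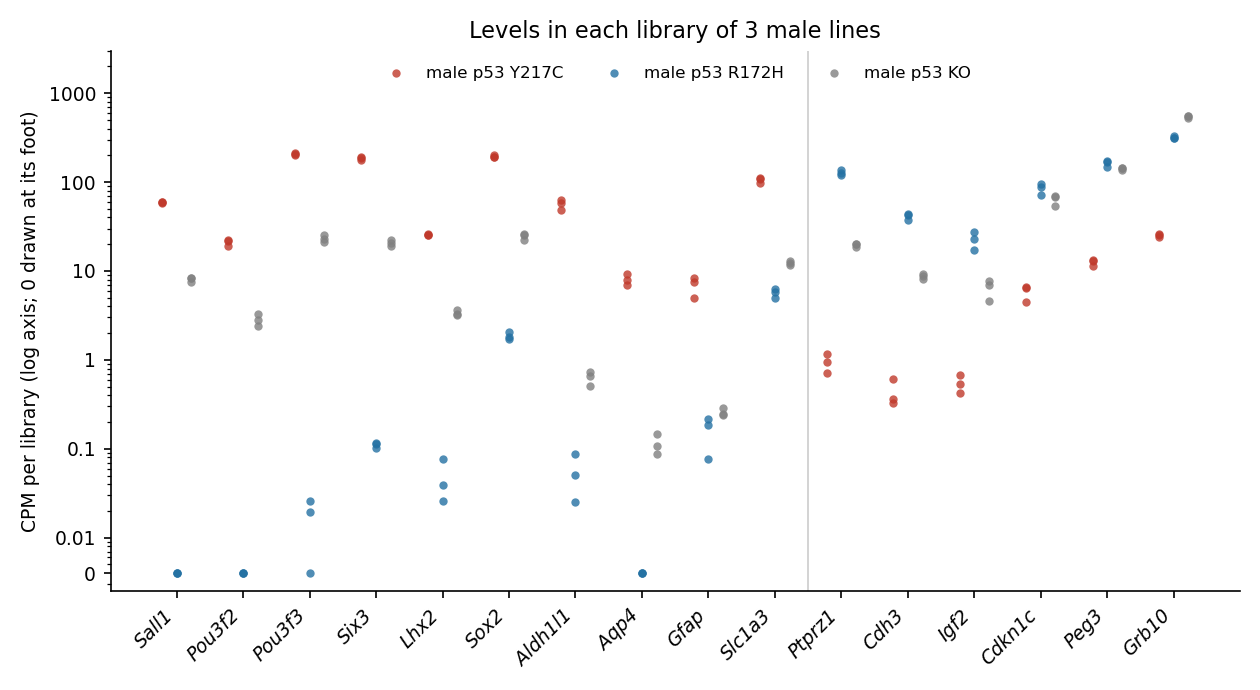
CPM on a log axis, with 0 drawn at its foot, for 10 genes higher (left of the line) and 6 lower (right) in Y217C, with 1 point per library for male p53 Y217C, male p53 R172H and male p53 KO (3 libraries each). For Sall1 and Pou3f3 the Y217C libraries stand far above R172H, for Ptprz1 they stand below it, and the libraries of each line lie close together.

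Because POU factors were among the largest rises, promoters were searched for the octamer ATGCAAAT, the DNA word that POU domains bind. Both strands of 300 bases per gene were read (250 before to 50 after the start, RefSeq, GRCm38.p6). The set held promoters for 10290 of the 14427 tested genes, and for 169 of the 240 over 32-fold higher. Genes without a promoter in the set were not searched, so the shares cover the promoters searched only. The octamer was present in 139 of 10290 promoters of tested genes (1.35%). It was in 8 of 169 promoters of genes over 32-fold higher (4.73%), 20 of 1014 over 2-fold higher (1.97%) and 18 of 970 over 2-fold lower (1.86%). These shares are descriptions without a test, the promoter sets also differed in their count of CG dinucleotides (median 21 over all promoters searched and 15 among those over 32-fold higher), and a match shows only that the letters are there. For comparison, the SOX word ACAANG was in 32.5% of all promoters searched and 36.1% of those over 32-fold higher, and the AP-1 word TGANTCA was in 4.9% and 9.47%. Of the 8 genes, 4 with high levels are shown, with 16 bases on each side and the octamer or its reverse complement in capitals.
Pipox, chr11:77894044-77894083, minus strand, 195 bases before the start: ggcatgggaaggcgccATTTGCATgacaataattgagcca
Ces1g, chr8:93337250-93337289, minus strand, 64 bases before the start: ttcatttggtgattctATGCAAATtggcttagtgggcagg
Jaml, chr9:45079072-45079111, plus strand, 95 bases before the start: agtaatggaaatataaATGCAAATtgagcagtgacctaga
Odaph, chr5:91987380-91987419, plus strand, 77 bases before the start: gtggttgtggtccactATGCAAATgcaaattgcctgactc
Their mean levels in Y217C were 17.5 CPM for Pipox, 12.9 CPM for Ces1g, 45.2 CPM for Jaml and 39.2 CPM for Odaph. In R172H, Pipox and Ces1g were at 0 in every library, and Jaml and Odaph averaged 0.030 and 0.488 CPM.

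Neural progenitor genes were mostly higher in Y217C, with 12 of 16 tested members higher, 3 lower and a median of 0.97. Sox2, a stem cell factor, measured 200, 190 and 190 CPM against 1.80, 1.73 and 2.05 CPM in R172H (log2 6.70, SE 0.09), and the male KO line averaged 24.5 CPM. The homeodomain protein Hopx was higher by 5.28, the receptor Notch1 by 2.32, the zinc finger factor Zbtb20 by 2.23 and the filament gene Nes by 0.94. Besides Ptprz1, the members that fell were Egfr, the epidermal growth factor receptor, by 1.14, and Lrig1, its inhibitor, by 0.99.

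Forebrain patterning factors split. Of 25 tested, 12 were higher and 10 lower, and 72.0% differed by over 2-fold beside 19.7% of all genes. Six3, an anterior forebrain factor, measured 191, 178 and 188 CPM against 0.116, 0.102 and 0.115 CPM, although its exons overlap the antisense Six3os1. The homeobox genes Lhx2 and Irx3 were higher by 9.08 and 5.76. In contrast, En1, a midbrain and hindbrain factor, fell by 3.26, and Zic2, Zic5 and Irx1 fell by 2.89, 2.87 and 2.83.

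Factors of the mesenchymal transition also split, 8 higher and 8 lower of 17. Over 2-fold, 4 were higher and 5 lower. Among the rises under 2-fold were Zeb1 and Cdh2 (N-cadherin), by 0.92 and 0.60, and the rises over 2-fold are not listed in this paragraph. Among the falls over 2-fold were Foxc2, Snai1, Snai2 and Twist1, by 1.78, 1.57, 1.47 and 1.47. Collagen genes were more often lower in Y217C. Of 33 tested collagen genes 19 were lower and 10 higher, and besides Col1a2, Col7a1 fell by 3.27, Col5a2 by 2.32 and Col16a1 by 2.01. The collagens that were higher included the membrane collagen Col25a1, by 7.47, and the basement membrane collagen Col15a1, by 5.59.

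Among 46 other matrix genes, 19 were higher and 21 lower (41.3% and 45.7%, beside 33.7% and 35.2% of all genes). The tenascin Tnn was higher by 9.54, the leucine-rich proteoglycan Prelp by 6.33 and the laminin chain Lama5 by 3.39. Besides Acan, the falls were led by Thbs2 (thrombospondin 2), by 3.03, Nid1 (nidogen), by 2.55, and Fbln1 (fibulin), by 2.09. Proteases and their inhibitors had 22 of 36 members lower and 12 higher, with a median of -0.62. Plau (urokinase) fell by 3.14 and Mmp2 (gelatinase A) by 2.84, while the inhibitor Timp3 was higher by 2.75, the aggrecanase family member Adamts9 by 3.95 and the membrane protease Mmp15 by 3.28.

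Adhesion genes showed both directions. Of 20 integrins, 7 were higher and 10 lower, among them the laminin-binding Itga7 with 165, 163 and 171 CPM against 7.01, 9.26 and 8.36 CPM, and the collagen-binding Itga11, higher by 1.74. Of 24 cadherins, 10 were higher and 11 lower (41.7% and 45.8%). Cdh13 (T-cadherin) was higher by 7.97 and Celsr1, of planar cell polarity, by 3.50, whereas besides Cdh3 the protocadherins Dchs1 and Pcdh19 fell by 2.87 and 2.21.

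Imprinted genes, which are expressed from the maternal or the paternal allele alone, were mostly lower in Y217C. Of 27 tested members 18 were lower and 6 higher, which is 66.7% and 22.2% beside 35.2% and 33.7% of all genes, and the list median was -1.68. Over 2-fold, 15 were lower and 4 higher, beside 9.21% and 10.5% of all genes. Igf2, a fetal growth factor expressed from the paternal allele, measured 0.537, 0.427 and 0.683 CPM in Y217C and 17.1, 27.6 and 22.7 CPM in R172H, with overlapping annotated transcripts on both strands. Cdkn1c (p57), a maternally expressed inhibitor of cyclin-dependent kinases, measured 6.39, 4.49 and 6.62 CPM against 71.0, 94.6 and 88.2 CPM, and its exons overlap an antisense gene. Peg3, a paternally expressed zinc finger gene, measured 12.8, 11.3 and 13.4 CPM against 166.1, 172.2 and 146.8 CPM. All Y217C libraries were below all R172H libraries for the 3 genes, and genes expressed from either parental allele were among the falls.

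Further falls in the list were Zdbf2 by 7.53, Ndn (necdin) by 4.81, the noncoding RNA H19, which overlaps other annotated transcripts, by 3.84 and the receptor adaptor Grb10 by 3.66. Grb10 measured 25.2, 26.3 and 24.2 CPM against 314, 313 and 328 CPM, and it averaged 543 CPM in the male KO line. The rises were Ppp1r9a by 2.14, Mest by 1.97, Peg10 by 1.55 and Zrsr1 by 1.20, where Mest and Zrsr1 each overlap an antisense gene in the table. Male KO means of 141 CPM for Peg3, 64.2 CPM for Cdkn1c and 54.0 CPM for H19 lay far above the Y217C means, and for Igf2 and Ndn the KO means of 6.39 and 6.45 CPM lay between both mutants.

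**Figure D3:**
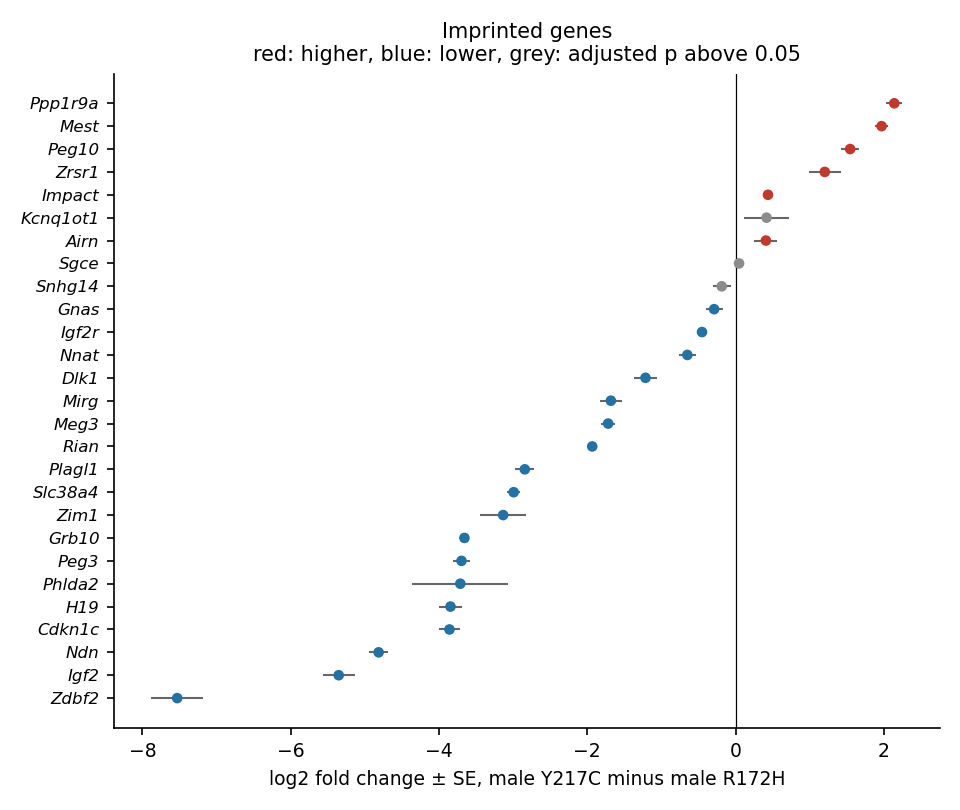
Log2 difference of male p53 Y217C minus male p53 R172H (horizontal axis, point and bar of 1 SE) for each of the 27 imprinted genes tested, ordered by size, in red where higher, blue where lower and grey where the adjusted p was above 0.05. Of these, 18 lie below 0 and 6 above 0 past the test, from Zdbf2 at -7.53 to Ppp1r9a at 2.14.

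Genes of DNA replication and mitosis differed little. Of 48 replication genes, 9 were higher and 12 lower, with a median of -0.08, and Pold1, the catalytic subunit of DNA polymerase delta, was the member that differed by over 2-fold (-1.09). Rfc3, of the clamp loader, was higher by 0.67 and Pcna, the clamp itself, by 0.28, and the helicase subunit Mcm2 did not pass (-0.14, SE 0.09). Of 48 mitosis genes, 6 were higher and 19 lower, none by over 2-fold, and the median was -0.11. Mki67, the proliferation marker, measured 315, 394 and 344 CPM in Y217C and 415, 325 and 344 CPM in R172H, and the groups overlapped (log2 -0.04, SE 0.14). The ubiquitin-conjugating enzyme Ube2c fell by 0.57 and the kinetochore gene Nuf2 was higher by 0.55.

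Genes that control entry into the cycle differed more, with 9 higher and 16 lower of 28. Ccnd1 (cyclin D1) measured 573, 605 and 563 CPM against 304, 278 and 271 CPM, and Rb1, the retinoblastoma protein that holds back entry, was higher by 1.72. Cdk6, a partner of cyclin D1, fell by 2.18, Ccne1 (cyclin E1) by 1.24, and the inhibitors Cdkn1c and Cdkn1a by 3.86 and 1.43. Activators and inhibitors were thus found in both directions.

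Of 35 known p53 target genes, 8 were higher in Y217C and 17 lower, with a median of -0.07. These are 22.9% and 48.6%, beside 33.7% and 35.2% of all genes. Cdkn1a (p21), the cell cycle inhibitor, measured 9.99, 9.68 and 10.6 CPM in Y217C and 24.1, 28.6 and 28.9 CPM in R172H, and the male KO line averaged 20.4 CPM. Larger falls were those of the death receptor Tnfrsf10b by 2.71, the kinase Plk2 by 2.31, the cell death gene Pmaip1 (Noxa) by 2.25 and Sfn (14-3-3 sigma) by 1.99. The KO line, in which Trp53 was deleted, held 32.5 CPM of Tnfrsf10b and 253 CPM of Plk2, beside 4.43 to 4.75 CPM and 65.3 to 76.1 CPM in Y217C. The cell death genes Bbc3 (Puma) and Bax had log2 differences of -0.72, which passed, and 0.07 (SE 0.07), which did not. Trp53inp1 and Sesn1, an autophagy and a stress response gene, were higher by 1.38 and 1.19.

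Of 54 growth factor ligands, 27 were higher in Y217C (50%, beside 33.7% of all genes) and 17 lower. Pdgfb, a mitogen of glial and mural cells, measured 62.6, 65.9 and 64.3 CPM against 3.34, 3.25 and 3.57 CPM in R172H (log2 4.25, SE 0.11), and Fgf2 measured 10.95, 10.61 and 10.46 CPM against 1.23, 1.23 and 1.21 CPM, with exons that overlap the antisense Nudt6. Artn, a ligand of the GDNF family, was higher by 4.52 and Gas6, a ligand of the Axl and Mertk receptors, by 3.78. Hgf, the ligand of Met, fell by 2.64 and the activin subunit Inhbb by 2.48. For receptors the counts ran the other way, with 14 of 50 higher and 25 lower. The coreceptor Gfra2 was higher by 2.24, Fgfrl1 by 2.10 and Mertk by 1.91. Lifr and Osmr, receptors of the interleukin 6 family, fell by 2.5 and 1.90.

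Feedback genes of these pathways counted 11 higher and 9 lower of 25. Id4, an inhibitor of differentiation factors, measured 56.9, 48.4 and 54.4 CPM against 1.72, 1.42 and 1.55 CPM, and Errfi1 and Spry1, inhibitors of receptor kinases, fell by 2.34 and 2.03. Early response factors had 7 of 18 higher and 5 lower (38.9% and 27.8%), such as Egr2, higher by 1.44, and Fos, lower by 1.33.

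Wnt pathway genes had 17 higher and 22 lower of 48 (35.4% and 45.8%, beside 33.7% and 35.2% of all genes). The receptor Lgr6 was higher by 7.66, the secreted antagonists Sfrp4 and Sfrp1 by 6.33 and 2.70, the feedback gene Axin2 by 3.21 and the ligand Wnt5a by 1.30. The Dickkopf family members Dkk3 and Dkk2 fell by 3.14 and 2.33, the feedback inhibitor Nkd1 by 2.5 and the transcription factor Lef1 by 2.29. Axin2 and Lef1, both known targets of the pathway, thus differed in opposite directions. In the Notch pathway 6 of 18 were higher (33.3%) and 5 lower (27.8%), shares no larger than those of all genes (33.7% and 35.2%), with the effector Hey1 higher by 1.95 and its relative Hey2 lower by 2.02, while the DNA-binding partner Rbpj fell by 1.42.

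In the chemokine and cytokine list 7 of 31 were higher and 15 lower. Cxcl14 measured 230.5, 202.2 and 246.3 CPM against 0.668, 0.781 and 1.02 CPM, whereas Cxcl12, the ligand of Cxcr4, fell by 1.43 and the neutrophil attractant Cxcl1 by 1.88. Of 39 interferon-stimulated genes 11 were higher and 10 lower (28.2% and 25.6%, both below the shares of all genes), with Ifit3 higher by 3.43 and Ifi27 lower by 1.97. For MHC class I, B2m, its light chain, was higher by 0.73, while 10 of 20 members were lower, among them H2-M3 by 0.79 and H2-T23 by 0.75.

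Cholesterol synthesis genes were higher together by small amounts, 18 of 24 (75.0%) with 3 lower and a median of 0.47. The sterol enzyme Nsdhl was higher by 1.08. Glycolysis and hypoxia genes were lower in 23 of 35 and higher in 10, with a median of -0.36. Adm (adrenomedullin) fell by 2.96, the lactate exporter Slc16a3 by 2.43 and the oxygen sensor Egln3 by 1.88. The lactate dehydrogenase Ldhb rose by 2.89 and the glucose transporter Slc2a3 by 1.42. Of 9 drug efflux transporters, Abcc4 was higher by 1.44 and 7 were lower, with Abcg2 lower by 1.05.

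Axon guidance genes differed by over 2-fold in 56.0% of 50 members, beside 19.7% of all genes, with 14 in each direction. The plexin Plxnb3 was higher by 8.75, and the transmembrane semaphorins Sema5b, Sema6d and Sema6a by 8.71, 5.44 and 5.13. The secreted semaphorins Sema3e, Sema3a and Sema3d fell by 3.10, 2.99 and 2.43, and Sema4f, another membrane semaphorin, fell by 3.78. Sema3e measured 13.8, 16.4 and 14.5 CPM against 130.5, 122.8 and 128.5 CPM.

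Both lines are male, and the genes of the Y chromosome differed in level. Kdm5d, a histone demethylase, fell by 1.10, the helicase Ddx3y by 1.04, the demethylase Uty by 0.91 and the translation factor Eif2s3y by 0.43. Xist, the RNA that silences an X chromosome in female cells, was near 0 in all 6 libraries, from 0.0127 to 0.203 CPM. Eda, a ligand of skin appendage development, fell by 2.90 at levels below 2 CPM. The plot of gene lists sets all lists side by side.

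**Figure D4:**
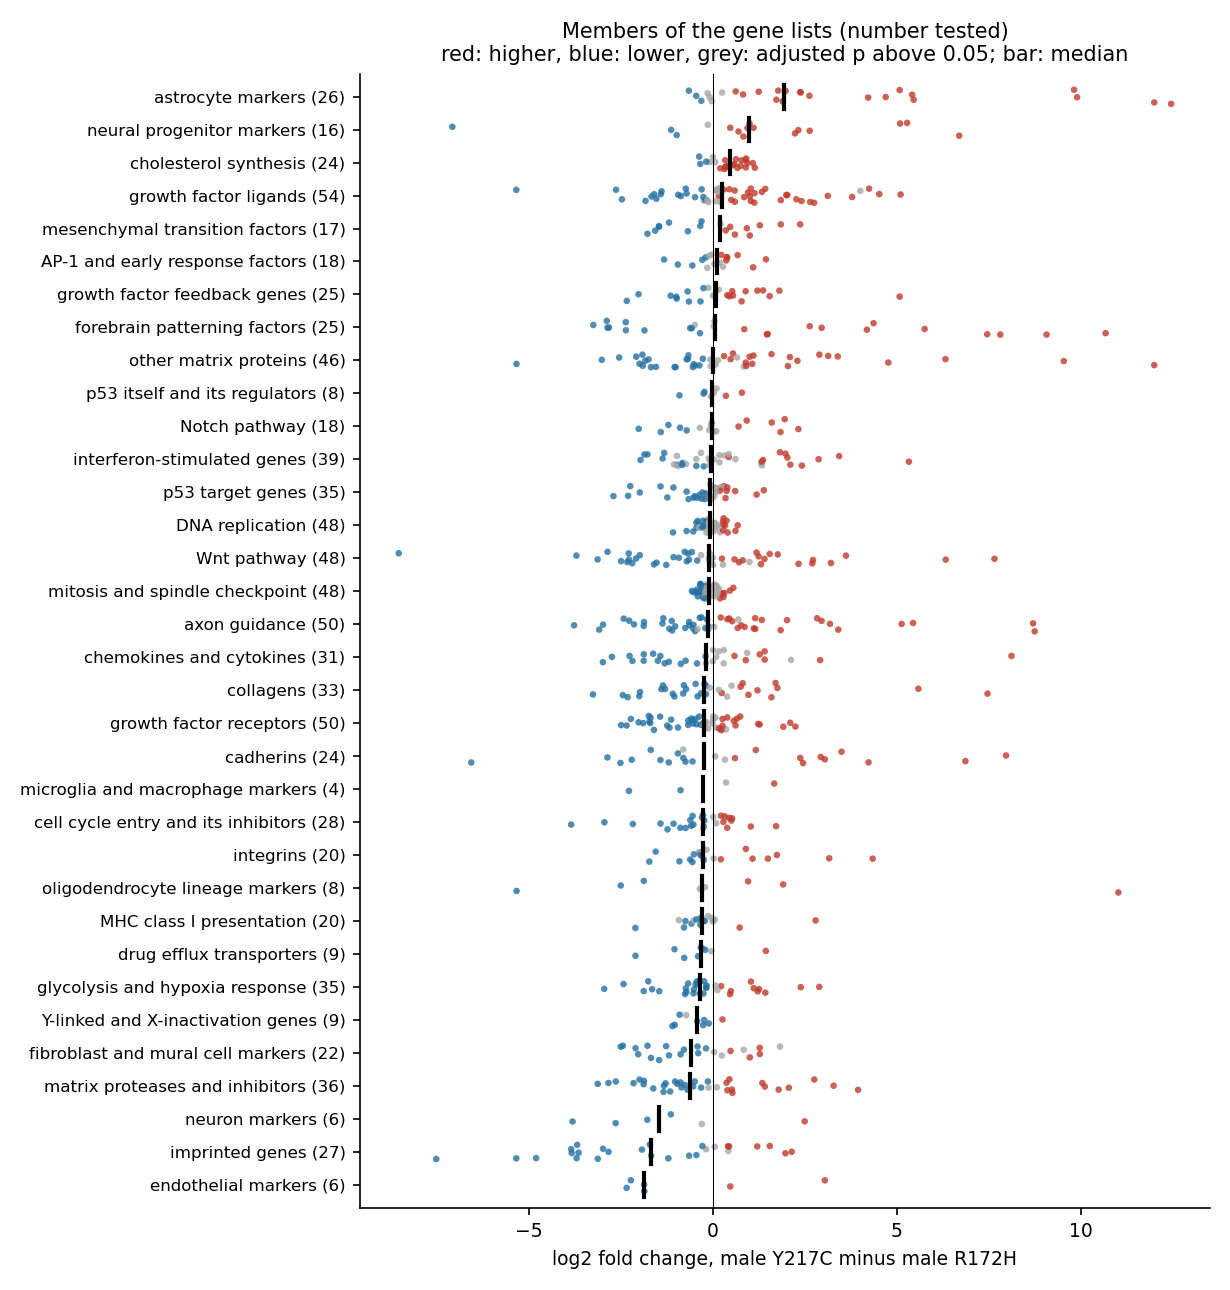
Log2 difference of male p53 Y217C minus male p53 R172H (horizontal axis) for each tested member of each gene list (1 row per list, 1 point per gene, number tested in parentheses), ordered by the list median, which is the black bar. Red points passed the test as higher, blue points as lower and grey points did not pass, and the medians run from 1.94 for astrocyte markers to -1.87 for endothelial markers, while DNA replication and mitosis points lie close to 0.

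The male KO line was most often nearer to R172H. Among the genes over 2-fold higher in Y217C, the KO mean was nearer R172H than Y217C on the log2(CPM + 0.5) scale in 1354 of 1519 (89.1%), and among those over 2-fold lower in 1193 of 1329 (89.8%). Exceptions were Sall1 and Sox2, whose KO means of 8.07 and 24.5 CPM were nearer Y217C on this scale. 

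The female lines with the same mutations were compared as a separate pair, which shares no library with the male pair. In females 9550 genes (66.2%) passed the test, and the interaction of mutation pair and sex passed for 10135 genes (70.3%). Of the 2848 genes over 2-fold in males, 2518 had an interaction past the threshold, 754 were over 2-fold in the other direction in females, and 500 were over 2-fold in the same direction. Aldh1l1, with a log2 difference of 9.90 in males, was at -5.98 in females, and Slc1a3, at 4.22 in males, was at -6.48. Sox2, higher in male Y217C, was low in both female lines, with means of 0 CPM in Y217C and 0.937 CPM in R172H. Ptprz1 was at -7.09 in males and 3.77 in females, and Trp53 at -0.91 and 0.92, so the order of the transcript itself was reversed. Other genes kept their direction, such as Myrf, at -5.34 in males and -3.70 in females. Peg3 was at -3.70 and -3.42, and its interaction did not pass (adjusted p = 0.10, edgeR). Sex and culture cannot be told apart here, since each sex is 1 culture.

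**Figure D5:**
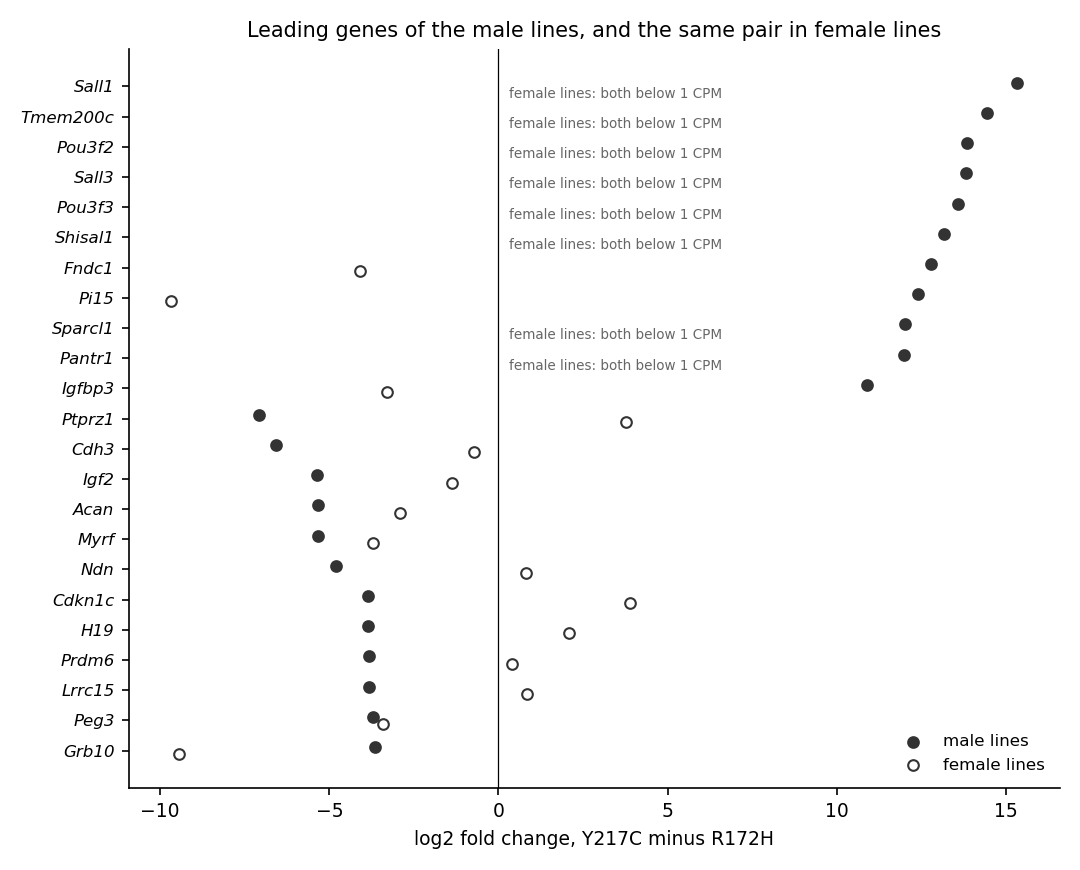
Log2 difference of Y217C minus R172H in the male pair (filled points) and in the female pair (open points) for the named genes with the largest rises and falls in males, with female values left out where both female lines were below 1 CPM. Values fitted against levels near 0 depend on the prior count, as for Pi15 in females (0.0268 CPM in Y217C). The female points do not follow the male order, for example Ptprz1 at -7.09 in males and 3.77 in females, while Myrf and Peg3 lie on the same side in both.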

How the data were processed

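RNA-seq of polyadenylated RNA gave 24 libraries, 6 of which form the contrast. The authors deposited 1 table of raw counts per gene, with Ensembl identifiers, made with STAR 2.5.1a and featureCounts (submitters' processing notes), and the strand setting is not given in the sources used here. GENCODE M21 named 14350 of the 14427 genes. Genes needed over 1 CPM in at least 2 libraries, which all deposited genes met. Counts of all 24 libraries were fitted with edgeR 4.0.16 (R 4.3.3; TMM normalization, 1 mean per line, quasi-likelihood F-test, Benjamini-Hochberg adjustment, threshold 0.05), with the female pair and the interaction as further contrasts. The authors' own test, limma (3.58.1) voomWithQualityWeights, and DESeq2 1.42.0 were alternatives. Scripts were tested on simulated data.

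The contrast and gene lists were chosen with earlier results of these data known. Named were Trp53, the 12 largest rises and falls with at least 20 CPM in the higher line, up to 4 members per list and direction with at least 5 CPM, genes that the study names, list members near 0 or not past the test, and genes at most at 3 counts in a line with at least 20 CPM in the other. The octamer genes, and the genes set beside the female lines, were chosen after their values were seen. Further list members that passed the test, such as Glul, Nes and Bbc3, were named outside these rules. Log2 differences of genes at or near 0 counts depend on the prior count, so for genes with at most 3 counts in every library of a line a bound against 3 counts per library is given, which covers counting error only. Totals of 70022599 to 106463163 counts set the depth. Some genes that this rule names, and Tfap2c, are not reported here.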

Additional observations from a re-analysis of the deposited data

Results flagged for a closer look

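The difference between Y217C and R172H was not the same in male and female cells for 10135 of 14427 genes, by the interaction term of the edgeR fit. The male minus the female log2 difference was 16.05 for Sox2, 15.89 for Aldh1l1, 10.7 for Slc1a3, 5.78 for Grb10 and 5.03 for Fgf2. It was -10.86 for Ptprz1, -3.98 for Igf2, -1.99 for Col1a2 and -1.84 for Trp53. For Sox2, Aldh1l1, Slc1a3, Ptprz1, Fgf2 and Trp53 the female pair ran in the other direction, whereas Igf2, Grb10 and Col1a2 were lower in Y217C in both sexes, with female log2 differences of -1.38, -9.44 and -0.46. Sox2 was at 0 CPM in female Y217C and 0.937 CPM in female R172H, so its 16.05 depends on the prior count and its place before the others is not established. These 9 genes were chosen after their values were seen. Each sex is 1 culture, so sex and culture cannot be told apart.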

How the results depend on the processing

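Across tests, scalings, filters, thresholds and left-out libraries, 9943 differing genes in males became 7766 to 10393, and the counts of higher and lower genes, the interaction count and the female count stayed within 1.5 times their values. The over 2-fold count moved with the rule itself: requiring CPM above 10, which leaves 10550 genes to test, gave 1626 genes (883 higher and 743 lower), and a log2 limit of 0.5 gave 5548 (2915 higher and 2633 lower). Leaving out 1 library at a time gave 2803 to 2885. Of the 2848 genes, 2801 were shared with limma and 2816 with DESeq2. The spread between the highest and lowest autosome median was 0.47, and 0.50 with CPM above 10. Of 16 recomputed medians of single chromosomes, 10 moved by at least the SD of that median over the 3 Y217C libraries. This SD could be very small, such as 0.002 for chromosome 16, whose median went from -0.154 to -0.141 with DESeq2 scaling. Each median kept its sign, and the largest change was on chromosome Y, from -0.43 to -0.85 with CPM above 10. Trp53 stayed between -0.94 and -0.85. Of 952 recomputed list counts, 942 stayed within 1.5 times.

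Replicate numbers did not pair the libraries, since deviations of same-numbered libraries correlated at -0.0837, -0.138 and -0.0191. With the replicate block 9848 genes differed, 2853 by over 2-fold, 10032 passed the interaction, 9438 passed in females, Trp53 was at -0.91, and 668 list members were called in place of 672.

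Of 187 named genes, Mdm2, Sox9, Mdm4, Gja1, Mki67, Nfia and Xist changed a call or a sign, and the cause was not tested. Mdm2 passed with limma (0.12) and with CPM above 10 (0.15), Sox9 passed with limma (-0.15) and without Y217C replicate 1 (-0.21), and Mdm4 was lost with CPM above 10 (-0.20) and without Y217C replicate 2 (-0.19). Genes not past the test changed sign: Mki67 to 0.016 and Nfia to 0.024 with CPM above 10, and Xist to 0.16 with limma. With libraries left out in turn, Gja1 ran from -0.171 to 0.0070 (without R172H replicate 3), Mki67 from -0.128 to 0.068 (without R172H replicate 1, and above 0 without Y217C replicate 1 too), Nfia from -0.0985 to 0.049 (without Y217C replicate 3, and above 0 without R172H replicate 2 too) and Xist from -1.19 to 0.26 (without R172H replicate 1). Each line is 1 population, so no setting separates mutation from line. Depth limits values below 0.0291 to 0.0402 CPM, which 3 counts correspond to.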

Other observations

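The gene families here were chosen after their values were seen, and they are given as values only. Of 80 ribosomal protein genes, 76 were lower in male p53 Y217C and none was higher, with a median log2 difference of -0.52, and Rpl28 (-1.05), whose exons overlap an antisense gene, was among the 2 over 2-fold lower. Of the 14 genes of the mitochondrial genome, 13 were higher, with a median of 0.74, and the summed share of these genes was 2.91 to 3.47% of counts in Y217C against 1.71 to 1.86% in R172H. All 3 metallothioneins, which bind zinc and copper, were higher. Mt1 measured 140, 98.4 and 136 CPM against 13.9, 15.8 and 15.5 CPM, and Mt3, the brain form, measured 121, 103 and 119 CPM against 0.523, 0.0769 and 0.127 CPM. Of 6 Hox genes in the table, which pattern the hindbrain and trunk, 4 were higher and 2 lower, beside 33.7% and 35.2% of all genes. Hoxa7 measured 2.94, 3.05 and 3.52 CPM in Y217C and 0 in all R172H libraries, at least 90.1-fold higher, and Hoxa5 was at least 44.3-fold higher.

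Medians of whole chromosomes are given as values without a test. The median log2 difference of the 19 autosomes ran from -0.22 on chromosome 7 (1034 genes) to 0.25 on chromosome 14 (496 genes). The 7 genes of the Y chromosome had a median of -0.43.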
